A study of Mus musculus with 9 samples.

Results

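The 9 genes examined here are listed coenzyme Q genes, matched by gene name: Pdss1, Coq2, Coq3, Coq5, Coq6, Coq7, Coq8a, Coq9 and Coq10a. They were 9 of the 28481 genes in the deposited table, and all 9 were among the 16123 genes with enough counts to test. RNA sequencing was run on mouse epididymal white adipose tissue, a visceral fat pad, in 4 libraries labelled UBKO and 5 labelled Control. UBKO stands in the labels for loss of Ctnnb1, the gene of beta-catenin, through a Cre driven by Ucp1, so recombination is directed to cells that use the Ucp1 promoter while the RNA came from the whole fat pad. Control is given as a genotype with no allele named. Every library of both groups came from tissue treated with CL316,243, an agonist of the beta3-adrenergic receptor, so no untreated baseline enters the comparison. Strain, age, dose and duration are not stated in the labels. Nor is it stated that each library came from its own animal, so a p-value here reflects only library-to-library spread, which may be technical.

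Coenzyme Q, or ubiquinone, is a lipid of the inner mitochondrial membrane that takes electrons from complex I, complex II and several other dehydrogenases and hands them to complex III. Its tail is built from isoprenoid units of the mevalonate pathway, its ring comes from tyrosine by way of 4-hydroxybenzoate, and the joined molecule is modified on the ring by enzymes that assemble at the matrix side of the membrane. In brown and beige fat the same electron flow feeds the respiration that releases heat.

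Library totals lay between 15308480 and 17632709 gene counts. Ctnnb1, the targeted gene, averaged 224 ± 56.7 CPM in UBKO libraries (SD, n = 4) and 311 ± 36.7 CPM in Control libraries (SD, n = 5), where CPM is the library-size-scaled count of edgeR after TMM scaling. Its log2 difference was -0.48 (SE 0.17), which missed the threshold of edgeR's quasi-likelihood test (Benjamini-Hochberg adjusted p = 0.0976). The library labelled UBKO replicate 3 had 307 CPM of Ctnnb1, within the Control range on that scale, and is kept in the values below. In deposited FPKM it had 22.1 of Ctnnb1, the highest of the UBKO libraries and below every Control library (24.6 to 37.0). Control replicates 1 and 2 held epididymal transcripts, 2.27% and 2.03% of their counts over 11 epididymis markers, while those markers were at or near 0 in the other 7 libraries, with at most 0.000102% of counts. The 14 macrophage markers took 0.0267% to 0.0360% of counts in UBKO libraries and 0.112% to 0.263% in Control libraries. In the same test 13 of them fell, beside 7.56% of all genes called lower. The 13 adipocyte markers took 2.29% to 2.93% of counts in UBKO libraries and 1.86% to 2.94% in Control libraries. In that test 3 of them were called higher and 0 lower, beside 3.88% of all genes called higher. In whole tissue, fewer cells of a type and less RNA per cell cannot be told apart.

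Coq6 and Coq7, both of which put hydroxyl groups on the ring, were higher in UBKO fat by 1.61-fold and 1.42-fold. By the quasi-likelihood test of edgeR with Benjamini-Hochberg adjustment at 0.05 they were the 2 of 9 genes called higher, and 0 of 9 were called lower. Over all 16123 genes 3.88% were called higher and 7.56% lower. The median log2 difference of the 9 genes was 0.26, against -0.01 over all tested genes, and 8 of the 9 values were above 0. The 95% interval of the difference lay above 0 for 4 genes and included 0 for the other 5. The shares of all genes with a value, or with an interval, above 0 were not counted. The directions of the 9 genes depend on how libraries were scaled. By total counts their median was -0.10 against -0.36 over all genes, and 4 of the 9 values were above 0. Without Control replicates 1 and 2, 0 of the 9 were called, beside 1.5% of all genes called higher.

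The stretches just before the RefSeq start sites of Coq6 and Coq7, the called genes, are shown with that of Coq2, whose level differed least between the groups under TMM scaling. They are the RefSeq sequences of build GRCm38.p6, 250 bases each, 5′ to 3′ on the gene's strand. Capitals mark the CCAAT box, the letters that NF-Y binds, or its reverse complement ATTGG. The Coq6 stretch is chr12:84361718-84361967 (plus strand), that of Coq7 is chr7:118533357-118533606 (minus strand) and that of Coq2 is chr5:100674257-100674506 (minus strand). The start sites of Coq6 and Coq2 lie inside the deposited gene spans.
Coq6: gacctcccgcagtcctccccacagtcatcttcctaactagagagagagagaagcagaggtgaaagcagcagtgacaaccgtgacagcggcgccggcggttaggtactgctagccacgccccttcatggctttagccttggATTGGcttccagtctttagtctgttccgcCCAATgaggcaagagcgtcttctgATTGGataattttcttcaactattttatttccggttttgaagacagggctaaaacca
Coq7: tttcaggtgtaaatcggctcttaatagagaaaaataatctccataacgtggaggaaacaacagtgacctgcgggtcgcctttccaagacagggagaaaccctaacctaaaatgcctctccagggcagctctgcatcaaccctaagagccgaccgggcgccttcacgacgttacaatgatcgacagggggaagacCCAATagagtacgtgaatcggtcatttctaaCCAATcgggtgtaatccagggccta
Coq2: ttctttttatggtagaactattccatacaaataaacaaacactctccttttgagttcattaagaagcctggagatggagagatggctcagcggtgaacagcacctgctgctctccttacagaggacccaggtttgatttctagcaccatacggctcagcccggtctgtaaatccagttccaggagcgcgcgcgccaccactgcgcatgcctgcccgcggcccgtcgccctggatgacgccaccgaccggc
Coq6 had 3 CCAAT matches, the nearest starting 57 bases before the start site, Coq7 had 2, and Coq2 had none. RefSeq promoters were found for 8 of the 9 genes, with 11 start sites in all, reaching from 250 bases before to 50 bases after each start. CCAAT on either strand stood at 3 of the 11 start sites, 1 in each of 3 genes, against 37.4% of all 32851 mouse promoters in the table. The third gene with it was Coq8a, with 3 matches, and Coq8a was not called. The NRF1 site matched at 1 of the 11 start sites, in Coq3, and in 4.6% of all promoters. TNAAGGTCA, an oestrogen-related receptor element, and CACGTG, an E-box, matched at 0 of the 11 start sites, against 1.28% and 7.15% of all promoters. None of these motifs overlapped another in the stretches shown, and a match is a description of letters only.

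Tail synthesis and attachment come first in the pathway. Pdss1 (ENSMUSG00000026784, mm10 chr2:22895522-22940266) encodes the catalytic subunit of the prenyl diphosphate synthase that builds the isoprenoid tail. UBKO replicates 1 to 4 had 10.5, 10.3, 10.3 and 12.1 CPM of Pdss1, and Control replicates 1 to 5 had 7.07, 7.44, 8.56, 6.11 and 9.49 CPM. Every UBKO library was above every Control library. The log2 difference was 0.48 (SE 0.15, 95% interval 0.14 to 0.82), with an edgeR adjusted p of 0.0735. Pdss1 was the lowest of the 9 genes, and Abi1, which overlaps it on the other strand and shares 4.57% of its exon bases, held 602% as many counts. Whether counting used strand is not stated, so reads from the shared bases cannot be assigned. Abi1 itself had a log2 difference of -0.16.

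Coq2 (ENSMUSG00000029319, mm10 chr5:100654723-100675140) joins the tail to 4-hydroxybenzoate. It had 55.6, 52.1, 55.4 and 54.5 CPM in UBKO replicates 1 to 4 and 45.3, 54.4, 61.8, 58.5 and 58.0 CPM in Control replicates 1 to 5. The UBKO libraries sat together inside the Control range. The log2 difference was -0.03 (SE 0.10), with a 95% interval of -0.26 to 0.19 and an edgeR adjusted p of 0.873. Its highest UBKO value was 1.07 times its lowest, and 98.9% of tested genes spread more widely over those 4 libraries. On the deposited FPKM scale, fragments per kilobase of exon, scaled to library size, the UBKO libraries had 12.9, 12.9, 12.3 and 11.8 FPKM and the Control libraries 15.2, 16.7, 16.5, 15.5 and 17.3 FPKM, with no overlap. Of all tested genes 24.2% were lower in UBKO with no overlap on that scale. Scaled by total counts, Coq2 fell by 0.38 on the log2 scale (edgeR adjusted p = 0.0111), beside 26.8% of all genes called lower.

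**Figure D1:**
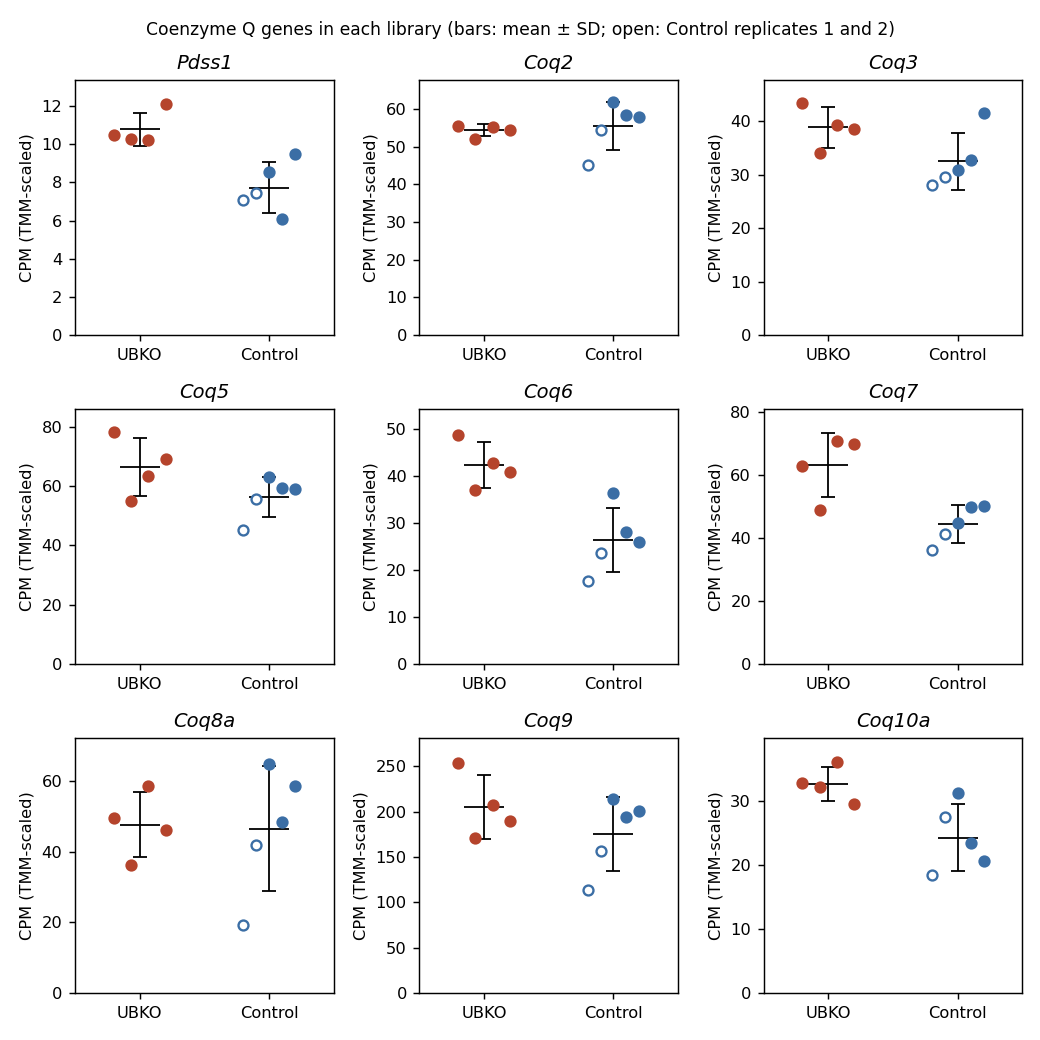
CPM after TMM scaling of each of the 9 genes in every library, 1 panel a gene, with UBKO on the left and Control on the right of each panel and the axis starting at 0. Bars give the mean and SD (n = 4 UBKO, n = 5 Control). Coq6 and Pdss1 show no overlap between the groups, whereas the UBKO points of Coq2 and Coq8a lie inside the Control range.

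The ring is then modified by hydroxylases and methyltransferases. Coq6 (ENSMUSG00000021235, mm10 chr12:84361657-84373796) is a flavin-dependent monooxygenase that hydroxylates the ring. UBKO replicates 1 to 4 had 48.7, 37.1, 42.7 and 40.9 CPM of Coq6, and Control replicates 1 to 5 had 17.6, 23.6, 36.3, 28.0 and 26.0 CPM. The lowest UBKO library, replicate 2, was just above the highest Control library, replicate 3. Coq6 averaged 42.3 ± 4.84 CPM in UBKO libraries (SD, n = 4) and 26.3 ± 6.80 CPM in Control libraries (SD, n = 5). Coq6 rose 1.61-fold (95% interval 1.21 to 2.14), a log2 difference of 0.69 with an SE of 0.18 (edgeR adjusted p = 0.0407). The call sat close to the threshold: it held in 3 of 9 edgeR fits that left out 1 library, with adjusted p of 0.00958 to 0.115 and log2 differences of 0.59 to 0.83, where 0.915% to 6.01% of all genes were called higher. It held without UBKO replicate 2 (edgeR adjusted p = 0.0481), Control replicate 1 (0.0450) or Control replicate 3 (0.00958) and was lost without each of the other 6. Fam161b overlaps Coq6 and held 6.40% as many counts.

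Coq7 (ENSMUSG00000030652, mm10 chr7:118509659-118533356) is the di-iron hydroxylase of the last-but-one step. It had 62.8, 48.9, 70.8 and 69.7 CPM in UBKO replicates 1 to 4 and 36.2, 41.1, 44.6, 49.9 and 50.2 CPM in Control replicates 1 to 5. UBKO replicate 2 lay within the Control range and the other 3 UBKO libraries lay above all 5 Control libraries. Coq7 averaged 63.1 ± 10.1 CPM in UBKO libraries (SD, n = 4) and 44.4 ± 5.98 CPM in Control libraries (SD, n = 5). Coq7 rose 1.42-fold (95% interval 1.14 to 1.76), a log2 difference of 0.51 with an SE of 0.14 (edgeR adjusted p = 0.0453). The call held in 2 of 9 edgeR fits that left out 1 library, with log2 differences of 0.45 to 0.61 and adjusted p of 0.0208 to 0.135. It held without UBKO replicate 2 (edgeR adjusted p = 0.0208) or Control replicate 4 (0.0499) and was lost without each of the other 7. Coq7 overlaps no other gene in the annotation.

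Without Control replicates 1 and 2, the libraries with epididymal transcripts, neither gene was called: Coq6 had a log2 difference of 0.48 (edgeR adjusted p = 0.0900) and Coq7 of 0.37 (edgeR adjusted p = 0.168). With UBKO replicate 2 left out as well, Coq7 passed at 0.50 (edgeR adjusted p = 0.0345) and Coq6 did not at 0.57 (edgeR adjusted p = 0.0613), beside 2.63% of all genes called higher. Leaving out the library labelled UBKO replicate 3 gave Coq6 a log2 difference of 0.69 and Coq7 one of 0.45, with edgeR adjusted p of 0.104 and 0.135. DESeq2's Wald test on all 9 libraries called Coq6 (adjusted p = 0.00715), Coq7 (adjusted p = 0.0134) and Pdss1 (adjusted p = 0.0380), beside 6.81% of all genes called higher. With no filter on low counts or with the replicate number as a block, edgeR called 0 of the 9 higher, beside 1.05% and 1.18% of all genes.

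Coq3 and Coq5, the O-methyltransferase and the C-methyltransferase of the ring, were not called. Coq3 (ENSMUSG00000028247, mm10 chr4:21879673-21912162) had 43.4, 34.1, 39.2 and 38.6 CPM in UBKO replicates 1 to 4 and 28.0, 29.4, 30.8, 32.7 and 41.4 CPM in Control replicates 1 to 5. All UBKO libraries exceeded Control replicates 1 to 4, and Control replicate 5 stood among them. The log2 difference of Coq3 was 0.26 (SE 0.13, 95% interval -0.03 to 0.55; edgeR adjusted p = 0.223). Coq5 (ENSMUSG00000041733, mm10 chr5:115279666-115296972) had 78.1, 55.1, 63.5 and 69.0 CPM in UBKO replicates 1 to 4 and 45.3, 55.7, 63.0, 59.3 and 58.9 CPM in Control replicates 1 to 5. UBKO replicates 1, 3 and 4 were above every Control library and UBKO replicate 2 was below 4 of them. The log2 difference of Coq5 was 0.24 (SE 0.13, 95% interval -0.05 to 0.52; edgeR adjusted p = 0.263).

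Coq8a, Coq9 and Coq10a act as helpers around the ring enzymes and the finished quinone. Coq9 (ENSMUSG00000031782, mm10 chr8:94838321-94854895) encodes a lipid-binding partner that Coq7 needs. Its level was 254, 171, 207 and 189 CPM in UBKO replicates 1 to 4 and 113, 156, 214, 194 and 201 CPM in Control replicates 1 to 5, so the groups overlapped. The log2 difference of Coq9 was 0.23 (SE 0.19, 95% interval -0.21 to 0.66; edgeR adjusted p = 0.486), beside 0.51 for its partner Coq7. The difference between the 2 genes' changes was not tested.

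Coq8a (ENSMUSG00000026489, mm10 chr1:180165238-180199602) encodes an atypical kinase-like protein required for coenzyme Q synthesis. It had 49.7, 36.4, 58.7 and 46.3 CPM in UBKO replicates 1 to 4 and 19.2, 41.9, 64.8, 48.5 and 58.8 CPM in Control replicates 1 to 5. Control replicates held both the lowest and the highest value. The highest Control value was 3.38 times the lowest, a range exceeded by 12.4% of tested genes. The log2 difference of Coq8a was 0.04 (SE 0.30), and its 95% interval of -0.64 to 0.71 was the widest of the 9 (edgeR adjusted p = 0.956). Cdc42bpa overlaps Coq8a on the other strand and held 71.0% as many counts. The skeletal muscle markers took 0.000585% to 0.000783% of counts in UBKO libraries and 0.00203% to 0.00879% in Control libraries, highest in Control replicate 3. Coq8a was also highest there in TMM-scaled CPM. In deposited FPKM, scaled to total counts as the marker shares are, Coq8a was highest in Control replicate 5 (7.80, against 7.69 in Control replicate 3). The part of the muscle markers in the level of Coq8a was not tested.

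Coq10a (ENSMUSG00000039914, mm10 chr10:128363100-128368997) encodes a lipid-binding protein whose yeast counterpart is needed for coenzyme Q to work in respiration rather than for its synthesis. UBKO replicates 1 to 4 had 32.8, 32.2, 36.1 and 29.5 CPM of Coq10a, and Control replicates 1 to 5 had 18.4, 27.5, 31.3, 23.4 and 20.7 CPM. UBKO replicate 4 fell below Control replicate 3 and the other UBKO libraries were above all Control libraries. The log2 difference of Coq10a was 0.43 (SE 0.16, 95% interval 0.08 to 0.78; edgeR adjusted p = 0.105). Coq10a was called in 1 of 9 edgeR fits that left out 1 library, the fit without Control replicate 3 (log2 difference 0.54, adjusted p = 0.0329), where 6.01% of all genes were called higher. Over the 9 fits the log2 difference was 0.36 to 0.54 and the adjusted p reached 0.239. Of the 9 genes, Coq6 and Pdss1 were higher in UBKO with no overlap in CPM, beside 6.41% of all tested genes.

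The choice of scaling set the direction for most of the 9 genes. TMM factors were 0.818 to 0.933 in UBKO libraries and 0.997 to 1.33 in Control libraries, so TMM raised UBKO values relative to total counts. Scaled by total counts, Coq6 had a log2 difference of 0.35 (edgeR adjusted p = 0.0930) and Coq7 of 0.15 (edgeR adjusted p = 0.329), while Coq3, Coq5, Coq8a and Coq9 were negative and 1.54% of all genes were called higher. The other values above 0 under that scaling were 0.12 for Pdss1 and 0.09 for Coq10a. Scaled to the 13 adipocyte markers, 0 of 9 genes were called in either direction, beside 0.509% of all genes higher and 9.56% lower. Coq6 was then at 0.25 and Coq7 at 0.01, and the median of the 9 was -0.22 against -0.50 over all genes. Of 36 complex I genes 21 were called higher under TMM, beside 3.88% of all genes, with a median log2 difference of 0.61. Scaling to them therefore gives lower UBKO values than TMM for other genes. Scaled to them, Coq2, Coq5 and Coq9 fell by 0.62, 0.36 and 0.35 on the log2 scale (edgeR adjusted p = 0.00519, 0.0339 and 0.0489). Of all genes 46.9% were called lower and 0.744% higher under complex I scaling. The median of the 9 was then -0.35, against -0.61 over all genes. Coq6 alone stayed above 0 under each of these scalings, at 0.11 under the last. Under each scaling the median of the 9 was above that of all genes, a statement about these 9 values only. A change of scaling moves all genes by a similar amount, so the scalings do not give separate observations of this gap. With limma on log2(FPKM + 1), which keeps the total-count scaling, Coq2 was called lower and 0 of the 9 higher, beside 31.2% and 2.3% of all genes, and with a pseudocount of 0.1 the same, beside 32.1% and 2.28%. The authors' deposited table gave Coq6 a log2 ratio of mean FPKM of 0.35 with a q-value of 0.0847, the lowest q-value of the 9. In the authors' deposited table Coq7 had 0.15 with a q-value of 0.259. Coq2 had a ratio of -0.38 there with a p-value of 0.917 from the authors' unnamed test, although its FPKM did not overlap between the groups. Whether that test used the same scaling as the ratio is not stated.

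**Figure D2:**
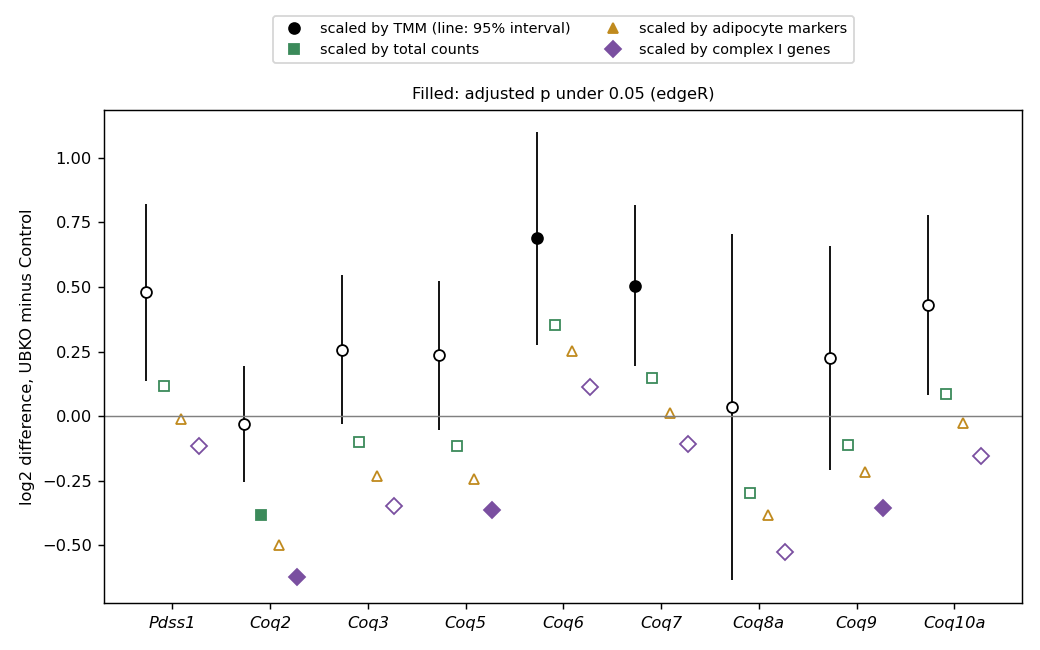
Log2 difference, UBKO minus Control, of each of the 9 genes under 4 scalings of the same counts, with 0 marked. Each gene shifts down from TMM to total counts, adipocyte markers and complex I genes, and Coq6 is the gene that stays above 0 in all 4, at 0.69, 0.35, 0.25 and 0.11.

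A ratio of 2 genes in the same library does not depend on scaling. Coq2 was taken as the denominator after its values were seen, so the ratios are a description. Of the genes examined here, Coq2 had the lowest log2 difference under TMM (-0.03), total-count (-0.38), adipocyte (-0.50) and complex I (-0.62) scaling. Ratios to it therefore lean upward in UBKO for the other 8 genes by that choice. Relative to Coq2, on the FPKM scale, 5 of the other 8 genes were higher in UBKO with no overlap and 0 were lower, beside 9.08% higher and 6.14% lower of all tested genes. Coq6 stood at 0.396 ± 0.0358 of the Coq2 level in UBKO libraries (SD, n = 4) and at 0.238 ± 0.0378 in Control libraries (SD, n = 5), a ratio of means of 1.66. Coq7 stood at 0.563 ± 0.0785 in UBKO libraries and 0.389 ± 0.0301 in Control libraries, and Coq10a at 0.537 ± 0.0420 and 0.389 ± 0.0606. Coq5 stood at 1.22 ± 0.150 in UBKO libraries, against 1.01 ± 0.00887 in Control libraries, where it was almost constant relative to Coq2. The fifth was Pdss1, with a ratio of means of 1.42, and Coq3, Coq8a and Coq9 overlapped, with ratios of means of 1.22, 1.07 and 1.21. These ratios are the same under each scaling and were not tested.

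**Figure D3:**
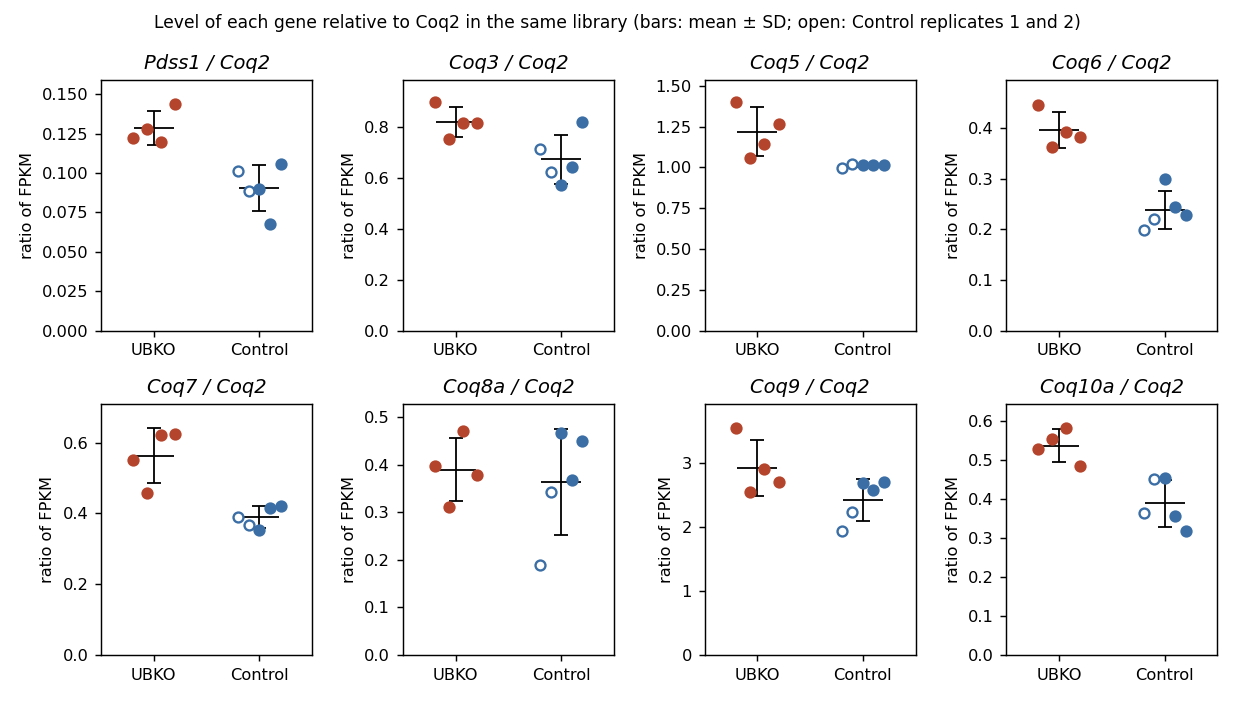
FPKM of each of the other 8 genes divided by the FPKM of Coq2 in the same library, with UBKO on the left and Control on the right of each panel and the axis starting at 0. Bars give the mean and SD (n = 4 UBKO, n = 5 Control), and Pdss1, Coq5, Coq6, Coq7 and Coq10a show no overlap.

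Levels were compared between genes per length. Deposited FPKM was highest for Coq9, at 36.6 ± 6.31 FPKM in UBKO libraries (SD, n = 4) and 39.6 ± 6.70 FPKM in Control libraries (SD, n = 5). Pdss1 was lowest, at 1.60 ± 0.0997 FPKM in UBKO libraries and 1.47 ± 0.280 FPKM in Control libraries. Between them, UBKO libraries had 15.2 FPKM of Coq5, 12.5 of Coq2, 10.2 of Coq3, 7.00 of Coq7, 6.70 of Coq10a, 4.94 of Coq6 and 4.85 of Coq8a. The lowest and highest of Coq7 and Coq10a overlapped, as did those of Coq10a with Coq6 and Coq6 with Coq8a, while the other neighbours were apart. Control libraries had 16.4 FPKM of Coq5, 16.2 of Coq2, 10.9 of Coq3, 6.32 of Coq7 and of Coq10a, 5.96 of Coq8a and 3.87 of Coq6. In Control, Coq5 overlapped Coq2, and the 4 genes from Coq7 down to Coq6 overlapped each with the next.

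The length behind the deposited FPKM counts exon bases more than once. It matched the sum of a gene's distinct exons within 1% for 97.8% of genes checked and the merged exons for 13.2%. For Coq6 it was 7383 bases, against 3142 bases of merged exons, the largest excess of the 9, which lowers its FPKM relative to the others. As CPM of total counts per kilobase of merged exons, Coq6 stood at 11.6 ± 1.29 in UBKO libraries (SD, n = 4), rank 4 of the 9, and at 9.09 ± 1.62 in Control libraries (SD, n = 5), rank 7. Coq6 was above Coq3 in 4 of 4 UBKO libraries on this scale, although the lowest and highest of the 2 genes overlapped. Coq5 and Coq2 stood at 18.8 and 17.9 in UBKO libraries, where Coq5 was above Coq2 in 2 of 4. In Control libraries the same genes stood at 20.4 and 23.3, and Coq2 was above Coq5 in 5 of 5.

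**Figure D4:**
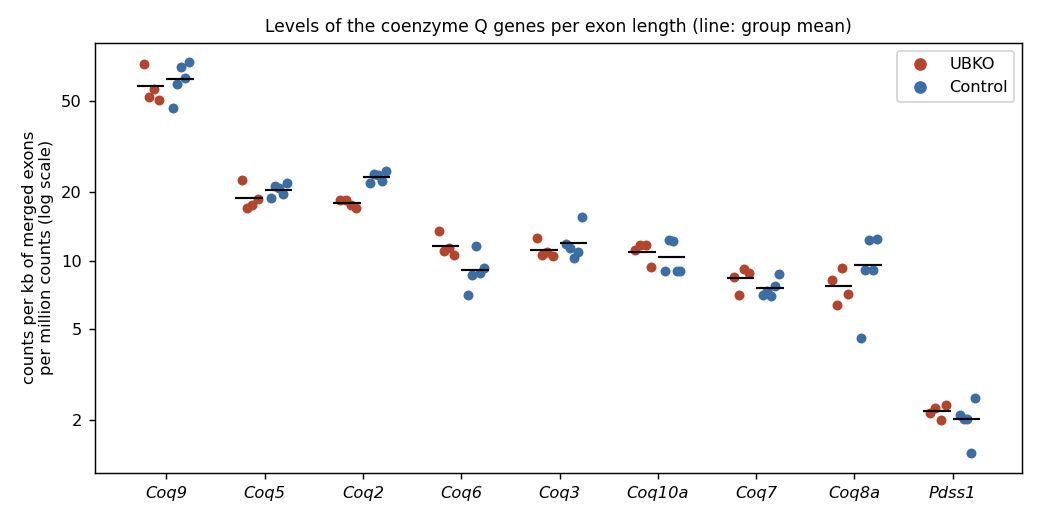
Level of each of the 9 genes in every library as counts per kilobase of merged exons, scaled to total counts, on a log axis, with UBKO points left of Control points for each gene and lines at the group means. Coq9 is highest and Pdss1 lowest in both groups, and the Coq6 means are 11.6 in UBKO libraries and 9.09 in Control libraries.

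In TMM-scaled log2 CPM the 9 genes varied together between libraries of a group. With each group's mean taken out, 35 of 36 pairs had a Pearson r above 0 over the 9 libraries, with a median of 0.66 and a range of -0.14 (Coq3 with Coq10a) to 0.97 (Coq2 with Coq8a). The points share libraries and their scaling, and pairs of other genes were not counted for comparison. Control replicate 1, a library with epididymal transcripts, had the largest TMM factor (1.33), and its part in these r values was not tested. Nor was shared regulation of the 9 genes tested. In TMM-scaled CPM, UBKO replicate 2 was the lowest UBKO library for 7 of the 9 genes and Control replicate 1 the lowest Control library for 8, whereas in FPKM UBKO replicate 4 was lowest for 5 and Control replicate 1 for 5. The highest libraries in CPM were UBKO replicate 1 for 5 genes and Control replicate 3 for 6, whereas in FPKM they were UBKO replicate 1 for 4 and Control replicate 5 for 7. Together the 9 genes took 0.0444% to 0.0554% of counts in UBKO libraries and 0.0417% to 0.0589% in Control libraries. By Pearson r with the mean of their z-scored log2 CPM over 9 libraries, the most alike genes were Ghitm and Mdh2 (both 0.99), Decr1, Idh1 and Mrps30 (all 0.98). Mdh2 is the mitochondrial malate dehydrogenase, Decr1 a mitochondrial enzyme of unsaturated fatty acid oxidation, and Mrps30 a mitochondrial ribosome protein. With group means taken out they were Decr1 and Mdh2 (both 0.99), Sucla2, AC160336.1 and Apoo-ps (all 0.98), and an r over 0.9 was reached by 2.70% and 1.64% of tested genes in the 2 versions.

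Among 13 other tested coenzyme Q genes, 1 rose and 1 fell under TMM, beside 3.88% of all genes called higher and 7.56% lower. Under total counts 1 was called higher and 4 lower, beside 1.54% and 26.8% of all genes. Under adipocyte scaling the counts were 0 and 2, beside 0.509% and 9.56% of all genes. Under complex I scaling they were 0 and 9, beside 0.744% and 46.9%. Coq10b, the paralogue of Coq10a, had 44.1, 40.7, 56.2 and 54.9 CPM in UBKO replicates 1 to 4 and 25.9, 26.9, 30.8, 23.7 and 29.3 CPM in Control replicates 1 to 5. The groups were well apart, with the lowest UBKO library above the highest Control library. The log2 difference of Coq10b was 0.84, with an SE of 0.13 (edgeR adjusted p = 0.00384), and it was called in 9 of 9 fits that left out 1 library. It was also called without Control replicates 1 and 2 (log2 difference 0.80, edgeR adjusted p = 0.0222) and under total counts (0.48, edgeR adjusted p = 0.0215). Scaled to adipocyte markers it had 0.33 (edgeR adjusted p = 0.271) and to complex I genes 0.23 (edgeR adjusted p = 0.201).

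Hpdl, which in human cells makes a ring precursor of coenzyme Q, had 2.54, 1.81, 1.58 and 1.39 CPM in UBKO replicates 1 to 4 and 19.3, 18.3, 3.11, 4.03 and 4.54 CPM in Control replicates 1 to 5. The high values were in Control replicates 1 and 2, the libraries with epididymal transcripts. Hpdl had a log2 difference of -2.42, with an SE of 0.63 (edgeR adjusted p = 0.0364), and without those libraries the log2 difference was -1.10 (edgeR adjusted p = 0.0674). It was called in 3 of 9 fits that left out 1 library. The part of the epididymal RNA in this result was not tested beyond that. Pdss2, the partner subunit of Pdss1, had a log2 difference of 0.44 (edgeR adjusted p = 0.0925), Coq4, a scaffold and ring-processing protein, 0.03 (edgeR adjusted p = 0.932), and Coq8b, the paralogue of Coq8a, 0.21 (edgeR adjusted p = 0.409).

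Beside 3.88% of all genes called higher and 7.56% lower, 1 of 10 genes of mevalonate and isoprenoid supply was called higher and 0 lower. It was Acat2, which makes acetoacetyl-CoA, with a log2 difference of 0.51 (SE 0.14; edgeR adjusted p = 0.0396) under TMM and 0.16 (edgeR adjusted p = 0.256) under total counts, and it was below 0 under complex I scaling, at -0.09. It was called in 3 of 9 edgeR fits that left out 1 library.

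Enzymes on either side of the quinone were counted in the same way. The reducing list holds genes of enzymes that reduce coenzyme Q and of proteins that pass electrons to such an enzyme. Of its 14 tested genes 3 rose and 0 fell. Of 9 genes of complex III, which oxidises the quinone, 5 rose and 0 fell. Both counts stood beside 3.88% of all genes called higher and 7.56% lower. Without UBKO replicate 1, 3 or 4 the counts called higher were 1 and 0 in each of the 3 fits. Of all genes 1.39%, 0.915% and 0.926% were called higher in those fits. Without Control replicate 3 the counts were 6 and 7, beside 6.01% of all genes. Gpd2, the mitochondrial glycerol-3-phosphate dehydrogenase, had 230, 207, 153 and 138 CPM in UBKO replicates 1 to 4 and 25.0, 52.7, 86.4, 67.1 and 51.8 CPM in Control replicates 1 to 5. Every UBKO library was above every Control library. Gpd2 had a log2 difference of 1.69, with an SE of 0.31 (edgeR adjusted p = 0.00958). It was called in 9 of 9 fits that left out 1 library, and was called under each of the 4 scalings, with log2 differences of 1.69, 1.38, 1.34 and 1.16. With the replicate number as a block it was not called (log2 difference 1.74, edgeR adjusted p = 0.0674). Sdha and Sdhb, the catalytic subunits of complex II, rose by 0.82 and 0.88 on the log2 scale (edgeR adjusted p = 0.0186 and 0.0236), each called in 6 of 9 fits without 1 library. Of complex III, Uqcrq rose by 0.90, Uqcrc2 by 0.82, Uqcrc1 by 0.78 and Cyc1 by 0.69 on the log2 scale (edgeR adjusted p = 0.0189, 0.0247, 0.0282 and 0.0483). Uqcrq and Uqcrc2 were called in 6 of 9 fits that left out 1 library, Uqcrc1 in 4 and Cyc1 in 3. Scaled to adipocyte markers or to complex I genes, Gpd2 was the 1 gene of the reducing list still called higher, and 0 of the 9 complex III genes were called. Of all genes 0.509% and 0.744% were called higher under those scalings. Nqo1, a quinone reductase of the cytosol, was called lower under complex I scaling (log2 difference -0.64, edgeR adjusted p = 0.0406), where 46.9% of all genes were called lower and the median of all genes was -0.61. Leaving out Control replicates 1 and 2, 3 genes of the reducing list and 1 of complex III were called higher, beside 1.5% of all genes.

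The order of the lists' medians depended on the libraries used. Under TMM the median log2 difference was 0.68 for complex III, 0.61 for complex I, 0.40 for the enzymes that reduce the quinone, 0.30 for isoprenoid supply, 0.26 for the 9 genes and 0.03 for the other coenzyme Q genes. Under total counts the same medians were 0.35, 0.26, 0.05, -0.06, -0.10 and -0.31, against -0.36 for all genes. Leaving out Control replicates 1 and 2 put complex I (0.47) above complex III (0.43) and isoprenoid supply (0.31) above the reducing enzymes (0.25), with the 9 genes at 0.14 and the other coenzyme Q genes at -0.05. The adipocyte markers had a median of 0.41 under TMM and 0.07 under total counts, and their part in the coenzyme Q values was not tested. Differences between lists were not tested.

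**Figure D5:**
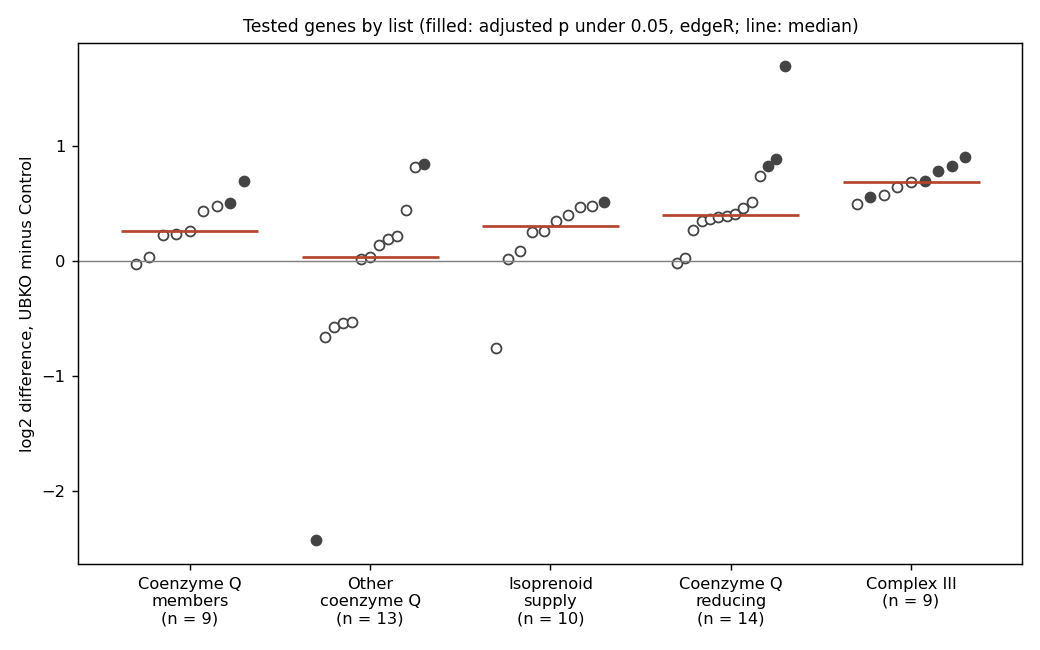
Log2 difference, UBKO minus Control under TMM, of every tested gene in each list, with the list's median marked and called genes filled. The 9 coenzyme Q genes have a median of 0.26, the complex III genes 0.68 and the other coenzyme Q genes 0.03.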

How the data were processed

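RNA was isolated on RNeasy columns and made into paired-end TruSeq libraries, per the labels' protocols. Build mm10, Cuffdiff, HISAT2 and SAMtools 1.3.1 come from the submitters' processing notes. What each tool did, the read counter, the annotation and strand handling were not given in the sources used here.

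For each gene the authors deposited whole-number counts of reads in each library, the matching FPKM, and their own log2 ratio, p-value and q-value, from an unnamed test. GENCODE M21 held 99.8% of the gene IDs. Groups and replicate numbers came from sample titles.

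The deposited counts of all 9 libraries were fitted in edgeR 4.0.16 (R 4.3.3): filterByExpr by group, TMM, then the two-sided glmQLFTest on a glmQLFit with genotype alone, and Benjamini-Hochberg adjustment over 16123 genes at 0.05. Every adjusted p called edgeR's is from that test. CPM are TMM-scaled. Precision depends on the counts and on the spread between libraries. Replicates were checked for duplicates: chi-square over its degrees of freedom was at least 17.0 for every pair. The fit was tested on simulated data. Alternatives used DESeq2 1.42.0, limma 3.58.1 on log2 FPKM with a pseudocount of 1 or 0.1, other scalings, no filter, and libraries left out. Scaling to complex I genes and levels per merged exon length were added after seeing the data.

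The 9 genes and all lists were chosen with earlier results of these data known, so counts in them are no independent support. Named were all 9 genes, Ctnnb1, called genes of the 3 pathway lists, up to 4 complex III genes with the smallest p, and the 5 genes most alike in profile, with and without group means. Coq4, Coq8b, Pdss2 and Nqo1 were named after their values were seen. Not every listed gene is reported here.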

Additional observations from a re-analysis of the deposited data

Results flagged for a closer look

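Of the 32 sets of values examined, 1 was flagged because a single library stood far from the rest of its group. Pdss1 was at 12.1 CPM in UBKO replicate 4, while the other 3 UBKO libraries lay within 10.3 to 10.5 CPM and the Control libraries within 6.11 to 9.49 CPM. Chance flags about 1 in 20 such groups. Without that library the log2 difference of Pdss1 was 0.42.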

How the results depend on the processing

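Over 20 alternatives the 9 genes gave 180 values, of which 113 kept direction and side of the threshold and 32 changed direction. Of the values that kept direction, 29 lost and 6 gained a call. Among those that changed direction, under complex I scaling, Coq7 lost its call and Coq5 and Coq9 became called lower. The cause of these changes was not tested. The count of all genes called moved to 4566 under total counts, 7689 under complex I scaling, 1110 with no filter, 3030 with DESeq2's test, 4025 and 4138 with limma (pseudocounts 1 and 0.1), 747 with the replicate block, 1022 without Control replicates 1 and 2, and 756 to 2449 with 1 library left out. The split of calls, 626 higher and 1219 lower under TMM, was 249 and 4317 under total counts and 82 and 1542 under adipocyte scaling. Coenzyme Q genes called higher were 0 under total counts, adipocyte, complex I, no filter, limma, the replicate block and without Control replicates 1 and 2, 1 without UBKO replicate 2 as well, and 0 to 2 with 1 library left out. Called lower were 1 under total counts and both limma fits (Coq2 in each) and 3 under complex I scaling.

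Directions reversed under total counts for Coq3 (-0.10), Coq5 (-0.12), Coq9 (-0.11) and Coq8a (-0.30), under limma for Coq3 (-0.082 and -0.089), Coq5 (-0.12 and -0.12), Coq9 (-0.11 and -0.11) and Coq8a (-0.20 and -0.23), and under adipocyte scaling for Coq10a (-0.028), Pdss1 (-0.012), Coq3 (-0.23), Coq5 (-0.24), Coq9 (-0.22) and Coq8a (-0.38). Under complex I scaling Coq7 (-0.11), Coq10a (-0.16), Pdss1 (-0.12), Coq3 (-0.35), Coq5 (-0.36), Coq9 (-0.35) and Coq8a (-0.52) reversed. Coq8a was -0.28 without Control replicates 1 and 2 and -0.14 without UBKO replicate 2 as well. With 1 library left out Coq8a ranged from -0.15 to 0.18 and Coq2 from -0.079 to 0.0090, and Coq2 was -0.093 without both Control libraries and UBKO replicate 2. With the replicate block, Coq6 had 0.72 (edgeR adjusted p = 0.103) and Coq7 0.55 (edgeR adjusted p = 0.0684). Deviations of same-numbered libraries from their group means had r of -0.18, 0.54, 0.09 and 0.16. Of 4 UBKO libraries 1 was closest to its own number, so the numbers were not taken as pairs. Depth limits Pdss1 most, the gene with the fewest counts (1339 over all libraries).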
